A study of Saccharomyces cerevisiae S288C with 12 samples.

Results

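Cse4 carrying alanine at lysines 215 and 216 (K215/216A, strain YMB9245) was compared with Cse4 carrying arginine at the same lysines (K215/216R, strain YMB9813) by chromatin immunoprecipitation and sequencing in budding yeast, Saccharomyces cerevisiae. The members are the regions of the merged peak list that the authors deposited for each strain, 3511 for K215/216A and 3052 for K215/216R, of 9198 such regions in the series with the 2635 of wild type (YMB8953). A region was common when it overlapped a region of the other mutant by 1 bp or more, and was otherwise placed in the class only in K215/216A or only in K215/216R. Both mutants and the wild type strain lacked PSH1 (psh1delta) and made Cse4 with a 6His-3HA tag from the GAL promoter. Cells of every group grew in 2% raffinose at 30 degrees C and were induced with 2% galactose for 2 h. The tagged protein was taken down with anti-HA beads from chromatin sonicated to about 100 bp. Each strain had 2 immunoprecipitated libraries, and the 6 input libraries of the series were not analysed here. Since the tag marks the overexpressed protein and Psh1 is absent from every group, the maps describe excess Cse4 in cells without this ligase.

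Cse4 is the yeast form of CENP-A, the histone H3 variant that replaces H3 in the centromeric nucleosome and on which the kinetochore is built. When it is made in excess it also enters chromosome arms, and the ubiquitin ligase Psh1 normally marks such Cse4 for destruction. Lysine accepts SUMO and ubiquitin, and the title of the series concerns sumoylation of the C-terminal part of Cse4, where lysines 215 and 216 lie. Arginine keeps the positive charge of lysine and alanine does not, and neither can carry SUMO. The comparison asks whether the choice of substitute residue goes with a difference in where Cse4 is found.

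Depth differed more between the K215/216R libraries than between those of K215/216A. The genome background, in fragments per base as recovered from the peak values, was 146 and 148 in K215/216A replicates 1 and 2 and 86.2 and 156 in K215/216R replicates 1 and 2, with 59.5 and 126 in wild type. Peaks per library numbered 4575 and 4725 in K215/216A, 3604 and 4822 in K215/216R, and 3123 and 4720 in wild type. A merged list held a region when peaks of both libraries of a strain were joined, so the shallower K215/216R replicate 1 limited the K215/216R list. Whether replicates came from separate cultures is not said in the labels, so permutation p values between strains cover the spread of these libraries alone, and that spread may be technical.

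Most regions were common to the mutants. Of the K215/216A regions 2463 (70.2%) overlapped a K215/216R region, and 1048 of 3511 (29.8%) were only in K215/216A. Of the K215/216R regions 2463 (80.7%) overlapped a K215/216A region, and 589 of 3052 (19.3%) were only in K215/216R. Where regions of the 2 lists overlapped they joined into 2383 common regions. Common regions were longer, with a median of 442 bp in the K215/216A list and 419 bp in the K215/216R list, against 286 bp for regions only in K215/216A and 274 bp for those only in K215/216R. The authors' fold, the pileup at the summit over the local background, had a median of 1.39 in regions only in K215/216A and 1.45 in regions only in K215/216R. It was 1.53 in K215/216A regions that were common and 1.60 in K215/216R regions that were common. Regions called in 1 mutant were therefore short and of low fold, which is a description, since peak calls chose them.

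Being only in 1 list did not mean that the other mutant lacked a peak. Of the 1048 regions only in K215/216A, 598 (57.1%) held a peak of K215/216R replicate 2 alone, 88 (8.40%) held one of replicate 1 alone, 8 held separate peaks of both, and 354 (33.8%) held none. Of the 589 regions only in K215/216R, 162 (27.5%) held a peak of K215/216A replicate 1 alone, 227 (38.5%) held one of replicate 2 alone, 8 held both and 192 (32.6%) held none. The K215/216R peaks missing from the first class were thus mostly those of the shallow library, while the K215/216A libraries shared the second class more evenly. Regions without any peak of the other mutant lay a median of 582 bp from its nearest peak in the K215/216A class and 625 bp in the K215/216R class, and 8.47% and 8.33% lay within 200 bp of it. Those at least 2000 bp away numbered 53 and 26.

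**Figure D1:**
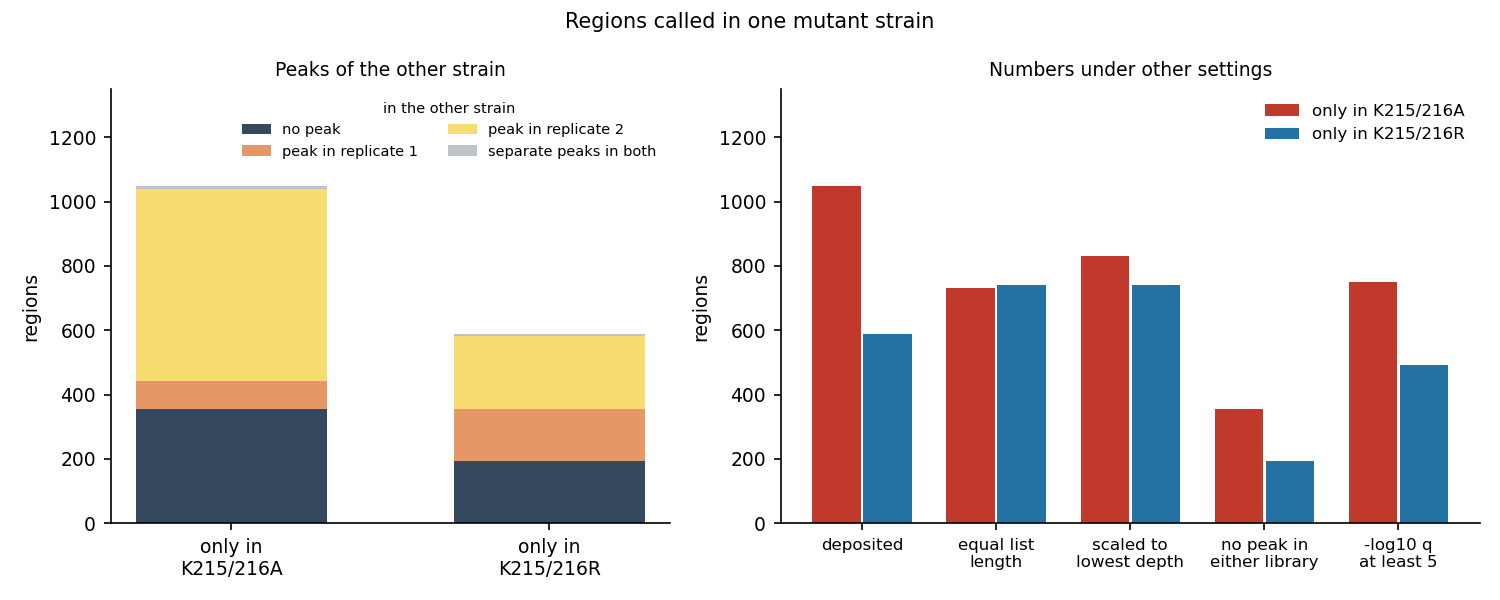
Left, the number of regions only in K215/216A and only in K215/216R, split by which libraries of the other strain had a peak there; right, the numbers of both classes as deposited and under 4 other settings. The excess of 1048 over 589 is not seen at equal list length, where the classes hold 731 and 741 regions.

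The 2 classes were closer in number when the lists were made comparable in length or depth. With 3604 peaks taken from each library, 731 regions were only in K215/216A and 741 only in K215/216R. With every pileup scaled to the genome background of K215/216R replicate 1, the numbers were 830 and 742. If K215/216R had the same enrichment as K215/216A, 735 of the 1048 regions (70.1%) would still pass the limit of K215/216R replicate 1 at its depth. All 1048 would pass at the depth of replicate 2, which is deeper than both K215/216A libraries and has a lower limit. That outcome was thus fixed in advance. Among the common regions of the K215/216A list 88.2% would pass at the depth of K215/216R replicate 1, although every one of them overlapped a K215/216R region. In the other direction 98.3% and 98.5% of the regions only in K215/216R would pass at the depths of K215/216A replicates 1 and 2. These shares scale the pileups that chose the regions and add no sampling noise, so they are a description and not a test. Regions that passed at both depths and held no peak of the other mutant numbered 216 (20.6%) only in K215/216A and 187 (31.7%) only in K215/216R. Leaving out a library changes the rule, because 1 library then makes the list. The class only in K215/216A held 1892 regions when K215/216A replicate 1 was left out, 1813 when replicate 2 was, and 442 without K215/216R replicate 1. The class only in K215/216R held 359 without K215/216A replicate 1 and 1635 without K215/216R replicate 1.

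Single libraries showed the same limits. Of the peaks of K215/216A replicate 1, 80.2% overlapped a peak of K215/216A replicate 2 and 79.2% overlapped one of K215/216R replicate 2, a library of similar depth. Of the peaks of K215/216A replicate 2, 77.3% overlapped replicate 1 of the same strain and 79.3% overlapped K215/216R replicate 2. The K215/216A libraries thus shared about as many peaks with the deep K215/216R library as with each other. Of the peaks of K215/216R replicate 1, 81.2% and 83.4% overlapped K215/216A replicates 1 and 2 and 90.0% overlapped K215/216R replicate 2. Of the peaks of K215/216R replicate 2, 73.9% and 76.7% overlapped the K215/216A libraries, and 79.7% overlapped wild type replicate 2.

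The classes differed in where they lay, and this difference, unlike the numbers, was also seen at equal list length. Promoters, taken as the 500 bp upstream of a protein-coding gene, held the best summit of 417 of 1048 regions only in K215/216A (39.8%; Wilson 95% interval 36.9% to 42.8%, counting error only) and of 131 of 589 regions only in K215/216R (22.2%; 19.1% to 25.8%). Common regions had 38.6%, and promoter windows made up 21.3% of the annotated span of 12 Mb. The K215/216A class was thus close to the common regions and the K215/216R class close to the share of the span. At equal list length the promoter shares were 42.5% and 25.6%, and with scaled depth they were 41.7% and 24.4%. Among regions without any peak of the other mutant they were 42.7% and 17.7%. Regions are not replicates and neighbouring genes can share a summit, so these intervals do not measure the spread between cultures.

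Between genes, the contrast was sharpest where 2 genes are read away from each other and their promoters share 1 interval. Such divergent intervals held 180 regions only in K215/216A (17.2%) and 41 only in K215/216R (6.96%), against 15.5% of common regions and 9.03% of the span. Intervals between tandem genes held 234 (22.3%) and 95 (16.1%), against 26.4% of common regions. Convergent intervals, where 2 genes end, held 56 (5.34%) and 54 (9.17%), against 5.87% of common regions and 3.98% of the span. Gene bodies held 575 (54.9%) and 398 (67.6%), against 51.6% of common regions and 73.7% of the span. The ratio of regions only in K215/216A to those only in K215/216R was 4.39 in divergent, 2.46 in tandem and 1.04 in convergent intervals, and 1.44 inside genes. Over all regions of these unequal lists it was 1.78, so the convergent and gene body ratios were below it.

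Inside protein-coding genes the classes also differed in position along the gene. Of summits in genes, 41.3% lay in the first 25% of the gene in the class only in K215/216A, 32.0% in the class only in K215/216R and 47.7% in common regions. The last 25% held 25.7%, 29.5% and 23.0% in the same order. The median summit of the class only in K215/216A lay at 36% of the gene length and that of the class only in K215/216R at 48.9%, near the middle.

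**Figure D2:**
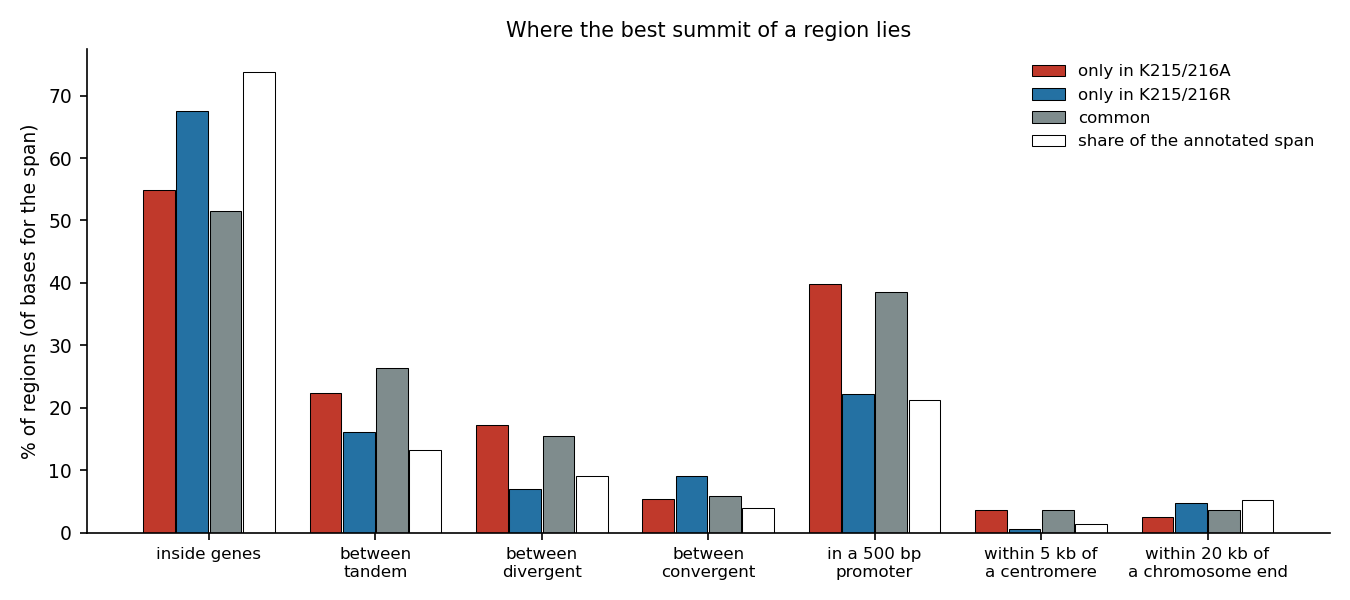
Share of regions (vertical axis, percent) whose best summit lies in each kind of place, for regions only in K215/216A, only in K215/216R and common, with the share of bases in the annotated span. Promoters hold 39.8% of the first class and 22.2% of the second, and gene bodies hold 54.9% and 67.6%.

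Over all peaks of each library, those of the class regions included, the shares moved the same way by smaller amounts. The classes were made from these same peaks, so the shares are no independent support for the class differences. Summits between divergent genes made up 15.2% and 14.9% in the K215/216A libraries and 13.4% and 12.8% in the K215/216R libraries. The groups did not overlap, with a difference of 1.96 percentage points (exact permutation p 0.333, two-sided, the smallest possible with 2 libraries against 2; adjusted 0.667 over 6 shares). Summits inside genes made up 56.1% and 55.5% in K215/216A, against 56.3% and 59.9% in K215/216R, a difference of −2.32 points (exact permutation p 0.333, adjusted 0.667). Most of that difference came with K215/216R replicate 2, since it was −0.50 points without this library and −4.13 without K215/216R replicate 1. Summits between tandem genes made up 23.1% and 23.0% in K215/216A, against 23.5% and 20.9% in K215/216R, with overlapping groups (difference 0.89 points, exact permutation p 1, adjusted 1). Without K215/216R replicate 2 the difference was −0.42 points, and without replicate 1 it was 2.19 points. Summits between convergent genes made up 5.11% and 6.16% in K215/216A, against 6.35% and 5.99% in K215/216R (difference −0.54 points, exact permutation p 0.667, adjusted 0.8). Leaving out K215/216A replicate 1 made it −0.015 points, and leaving out replicate 2 made it −1.06 points. None of the 6 shares could reach 0.05 in this design.

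Centromeres were favoured by regions only in K215/216A over those only in K215/216R. A centromere interval was taken as the gap left by the genes nearest to it on each arm, 630 to 2541 bp long. Within 5 kb of such an interval lay 39 regions only in K215/216A (3.72%) and 4 only in K215/216R (0.68%), with 3.61% of common regions and 1.47% of the span. At equal list length the shares were 3.42% and 1.35%. The share only in K215/216R rests on few regions, and it was 0.279% when K215/216A replicate 1 was left out and 1.28% when K215/216R replicate 1 was. In those cases the share only in K215/216A was 2.59% and 3.62%. Inside the intervals themselves 3 best summits belonged to regions only in K215/216A and 0 to regions only in K215/216R. Over all peaks of each library the share within 5 kb was 3.39% and 3.05% in K215/216A, against 2.94% and 2.94% in K215/216R, a difference of 0.27 points (exact permutation p 0.333, adjusted 0.667). Leaving out K215/216A replicate 1 made it 0.10 points, and leaving out replicate 2 made it 0.44 points.

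Fold at the centromere intervals was mostly higher with alanine. Of 16 intervals, 15 had a peak in all 4 mutant libraries, and in 10 of these both K215/216A libraries exceeded both K215/216R libraries. The reverse was found in 0, and in the other 5 the groups overlapped. Among all 2383 common regions K215/216A stood above in 14.1% and K215/216R in 31.6%. At the intervals the ratio of mean folds, K215/216A over K215/216R, ran from 0.991 to 1.41 with a median of 1.24. On chromosome IV the fold was 4.44 and 3.78 in the K215/216A libraries and 3.25 and 2.92 in the K215/216R libraries. On III it was 3.0 and 2.96 in K215/216A, against 2.38 and 2.15 in K215/216R. These strains did not overlap at either centromere. On XII it was 2.39 and 2.40 in K215/216A, against 1.77 and 1.76 in K215/216R, again without overlap. On V it was 2.42 and 2.24 in K215/216A, against 2.41 and 2.26 in K215/216R, and on XVI 2.02 and 2.16 in K215/216A, against 2.04 and 1.87 in K215/216R, so the groups overlapped at both. The interval of VII had a fold of 2.16 and 1.68 in K215/216A and no peak in K215/216R or wild type within its bounds. It touched a common region as well as a region only in K215/216A. The latter, at ERG26, had the lower folds 1.56 and 1.41 in K215/216A. K215/216R thus had a peak in that common region, beyond the bounds of the interval. Folds of separate peak lists were not tested between strains.

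The wild type libraries, which took no part in making the classes, had peaks far more often in regions only in K215/216R. Wild type replicates 1 and 2 had a peak in 23.4% and 52.8% of regions only in K215/216A, in 50.8% and 82.3% of regions only in K215/216R, and in 77.0% and 94.9% of common regions. The means were 38.1% ± 20.8, 66.6% ± 22.3 and 85.9% ± 12.7 (SD, n = 2 libraries), and the wide spread went with the lower depth of wild type replicate 1. In either wild type library alone the K215/216R class stood above the K215/216A class. Regions only in K215/216R also had the higher median fold in their own strain, 1.45 against 1.39. The part of fold and depth in this difference between classes was not tested. Neither wild type library had a peak in 457 regions only in K215/216A (43.6%) and in 77 only in K215/216R (13.1%). Among regions with no peak of the other mutant, wild type replicates 1 and 2 had one in 8.19% and 27.4% of those only in K215/216A and in 46.9% and 78.6% of those only in K215/216R. At equal list length the mean shares were 46.6% and 74.6%. No test was run over regions, which are not replicates.

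Among the 12 regions only in K215/216A with the highest fold, K215/216R replicate 2 had a peak in 10. The first lay in the centromere interval of chromosome I (chrI:151650-151814), beside TFC3, a subunit of the RNA polymerase III factor TFIIIC. Its fold was 2.13 and 2.15 in the K215/216A libraries and 1.34 in K215/216R replicate 2, with no peak in K215/216R replicate 1 or wild type. The region upstream of VMA5 (chrXI:284392-285049), which encodes a subunit of the vacuolar proton pump, had 1.81 and 2.32 in K215/216A and 2.19 in K215/216R replicate 2, so that library was as high as K215/216A. The same held at the intergenic site nearest HXT7, a hexose transporter gene (chrIV:1156727-1156957), one of a family of close copies, with 1.95 and 2.04 in K215/216A, 1.98 in K215/216R replicate 2 and 1.78 in wild type replicate 2. Upstream of GPG1 the values were 1.82 and 1.87 in K215/216A, 1.91 in K215/216R replicate 2 and 1.82 in wild type replicate 2. At these 3 sites only the missing call in the shallow K215/216R replicate 1 set the region apart.

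At some others of these 12 regions K215/216A was higher than the deep K215/216R library. Upstream of HYP2, the gene of the translation factor eIF5A, and inside UTR5 (chrV:84947-85311), the fold was 2.06 and 1.88 in K215/216A, 1.25 in K215/216R replicate 2 and 1.33 in wild type replicate 2. Upstream of FDO1 (chrXIII:553076-553527) it was 1.87 and 2.05 in K215/216A and 1.46 in K215/216R replicate 2, with 1.50 and 1.72 in wild type. Between YDR215C and ADR1, the activator of alcohol dehydrogenase and peroxisomal genes (chrIV:894578-894876), it was 2.12 and 1.70 in K215/216A, 1.66 in K215/216R replicate 2 and 1.52 in wild type replicate 2, so the lower K215/216A library was level with K215/216R. The other regions of the 12 with a K215/216R replicate 2 peak lay in CUE4 upstream of YML100W-A, in RRN5, a gene of the RNA polymerase I upstream factor, and in MRPL39, a gene of the mitochondrial ribosome. In CUE4 the fold was 1.97 and 2.12 in K215/216A and 2.06 in K215/216R replicate 2, which lay between them. As at VMA5, HXT7 and GPG1, only the missing call in K215/216R replicate 1 set this region apart. In RRN5 and MRPL39 the folds were 1.86 to 1.95 in the K215/216A libraries and 1.68 to 1.72 in K215/216R replicate 2.

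Regions only in K215/216A that held no K215/216R peak were led by the divergent interval of COQ2 and MVD1 (chrXIV:701614-701908), genes of coenzyme Q and of sterol synthesis. It had 1.92 and 1.90 in K215/216A and 1.99 and 1.99 in wild type, and the nearest K215/216R peak lay 197 bp away. The next was the divergent interval nearest GID8, a subunit of the ubiquitin ligase that removes gluconeogenic enzymes (chrXIII:540518-540699). It had 1.81 and 1.86 in K215/216A and no peak in K215/216R or wild type. The convergent site nearest RPG1, a subunit of the initiation factor eIF3 (chrII:395250-395453), had 1.76 and 1.90 in K215/216A and no peak within 3083 bp in K215/216R. The promoters of SVL3, NUT1 (a Mediator subunit), GSY1 (glycogen synthase) and IES6 (a subunit of the INO80 remodeler) also had peaks in both K215/216A libraries and none in K215/216R or wild type, with folds of 1.62 to 1.88. NRG1, a repressor of glucose-repressed genes, had 1.57 and 1.84 in K215/216A and 1.24 in wild type replicate 2. SVL3, RPG1, NUT1, GSY1, IES6 and NRG1 were chosen after their values were seen, as leading regions of this kind.

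Regions only in K215/216R were led by a convergent site on chromosome VIII nearest the retrotransposon gene YHL009W-B (chrVIII:91677-91831). Its fold was 2.63 and 2.59 in K215/216R, with no K215/216A peak, and 2.81 in wild type replicate 2. Such genes have near-identical copies, and how the authors placed reads that fit several copies is not given in the sources used here. A convergent site nearest YKR045C (chrXI:523205-523569) had 1.46 in K215/216A replicate 2, 2.48 and 2.28 in K215/216R, and 1.92 and 1.72 in wild type. The promoter of PAU4, a seripauperin gene near the end of chromosome XII (chrXII:1062653-1062840), had 1.84 in K215/216A replicate 2, 2.13 and 1.96 in K215/216R and 1.63 in wild type replicate 2. PAU genes are also a family of close copies. At YKR045C and PAU4, K215/216A replicate 1 had no peak, and the fold of replicate 2 was below both K215/216R libraries, though not far below at PAU4.

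Of these 12 K215/216R regions, 7 lay inside genes and 11 held a K215/216A peak. In SEC3, an exocyst gene (chrV:167795-168109), the fold was 1.17 in K215/216A replicate 2 and 2.26 and 1.62 in K215/216R, with no wild type peak. In GEF1, a chloride transporter gene (chrX:507795-508263), it was 1.61 and 1.47 in K215/216A, 1.86 and 1.98 in K215/216R and 1.36 and 1.66 in wild type. Separate K215/216A peaks in GEF1 did not join each other. In YMR187C (chrXIII:635764-635926) it was 1.67 in K215/216A replicate 2, 2.02 and 2.00 in K215/216R and 1.38 in wild type replicate 2. The site upstream of SPC98, a gene of the gamma-tubulin complex (chrXIV:386956-387283), had 1.41 in K215/216A replicate 2, 1.87 and 1.96 in K215/216R and 2.08 in wild type replicate 2. The others were in MGS1, YHL017W, CDC1 upstream of SAS4, and MSL5, and at a tandem site nearest YCL021W-A. Their folds were 1.27 to 1.93 in the K215/216A library that had a peak and 1.74 to 2.00 in K215/216R. In CDC1 K215/216A replicate 1 had 1.93, above both K215/216R libraries (1.89 and 1.82). Only the missing call in K215/216A replicate 2 set that region apart.

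In common regions the authors' folds were on the whole slightly lower in K215/216A. Both K215/216A libraries exceeded both K215/216R libraries in 336 of 2383 common regions (14.1%), and the reverse held in 754 (31.6%). The ratio of mean folds, K215/216A over K215/216R, had a median of 0.960 over all common regions. The median fold of all peaks was 1.43 and 1.45 in the K215/216A libraries and 1.57 and 1.46 in the K215/216R libraries, highest in the shallow one, and the part of depth in the excess of 754 over 336 was not tested. At equal list length the numbers were 271 and 557. With the recovered pileup over the genome background in place of the fold they were 268 and 795. Leaving out any 1 of the 4 libraries loosens the rule. Without the shallow K215/216R replicate 1, 924 regions were higher in K215/216A, against 1227 that were higher in K215/216R, the smallest excess of the 4 omissions. The numbers were 634 and 1277 when K215/216R replicate 2 was left out, 664 and 1157 when K215/216A replicate 1 was, and 616 and 1274 when K215/216A replicate 2 was.

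**Figure D3:**
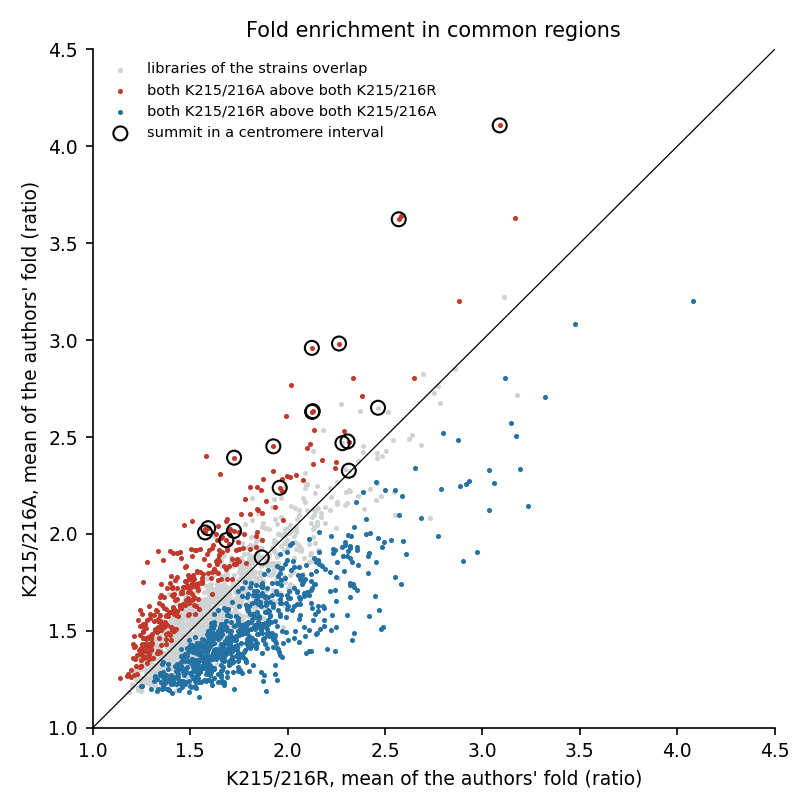
Mean of the authors' fold over the 2 libraries in each of 2383 common regions, K215/216A on the vertical and K215/216R on the horizontal axis, with the line of equal values. Coloured points are the 336 and 754 regions whose libraries do not overlap between strains, and circles mark summits inside centromere intervals, 13 of 18 of which have K215/216A above.

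The place of a common region went with the direction of its difference. With the summit inside a centromere interval, K215/216A stood above K215/216R in 13 of 18 regions (72.2%) and below it in 0. From 1 to 5000 bp away it stood above in 20 of 68 (29.4%) and below in 17 (25%). Beyond 50 kb it stood above in 238 of 1892 (12.6%) and below in 621 (32.8%). The median ratio was 1.24 inside the intervals, 0.991 within 5000 bp, 0.982 from 5 to 20 kb, and 0.956 both from 20 to 50 kb and beyond. Against 14.1% of all common regions, K215/216A thus stood above most often inside the intervals, and the share was lower in each class of greater distance. Between divergent genes K215/216A stood above in 69 of 370 common regions (18.6%) and below in 100 (27%). Inside genes it stood above in 142 of 1229 (11.6%) and below in 442 (36%). Within 20 kb of the outermost annotated gene of a chromosome, or beyond that gene, it stood above in 8 of 85 (9.41%) and below in 32 (37.6%). In the 15 of these that lay beyond the gene, 1 stood above and 1 below.

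Wild type values were set beside both mutants in the 1800 common regions with a peak in all 6 libraries. Where K215/216R exceeded K215/216A, the mean wild type fold was nearer to K215/216R in 489 of 630 regions (77.6%). Where K215/216A exceeded K215/216R it was nearer to K215/216R in 116 of 210 (55.2%), and where the mutants overlapped, in 525 of 960 (54.7%). Where K215/216R stood above, the median folds were 1.48 in K215/216A, 1.79 in K215/216R and 1.79 in wild type. Where K215/216A stood above, they were 1.76 in K215/216A, 1.49 in K215/216R and 1.60 in wild type. The shallowest library, wild type replicate 1, also had the highest median fold of all peaks, 1.66, and the part of depth in these comparisons was not tested.

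The common regions with the largest ratio toward K215/216A included sites on the arms and at centromeres. The convergent site nearest AVT7, a vacuolar amino acid transporter gene (chrIX:196974-198575), had 2.14 and 2.66 in K215/216A, 1.53 and 1.64 in K215/216R, and 1.27 and 1.53 in wild type, a ratio of 1.52. The promoter of THO1 (chrV:281173-281650) had 1.82 and 2.00 in K215/216A, 1.33 and 1.34 in K215/216R, and 1.26 and 1.25 in wild type. At both sites K215/216R lay close to wild type and K215/216A lay apart. The promoter of VHR1, a regulator of biotin genes (chrIX:249457-250267), had 2.15 and 2.47 in K215/216A, 1.87 and 1.44 in K215/216R, and 1.89 and 1.50 in wild type, so the libraries of K215/216R and wild type overlapped and both K215/216A libraries lay above them.

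Near STP4 (chrIV:366620-367317) the pattern was different. Its fold was 2.34 and 1.37 in K215/216A, 1.25 and 1.31 in K215/216R, and 2.35 and 2.11 in wild type, and the K215/216A libraries differed by more than the strains. Upstream of PDS1, the gene of securin, and inside YDR114C (chrIV:681842-682935), it was 1.56 and 1.94 in K215/216A, 1.32 and 1.196 in K215/216R, and 2.06 and 1.95 in wild type, so K215/216R was the lowest. The other 3 lay at centromeres VIII and IX. The region of OSH7 (chrVIII:105688-107079) had 3.53 and 3.72 in K215/216A, 2.71 and 2.44 in K215/216R and 1.91 and 1.94 in wild type. The neighbouring one nearest RPL14B (chrVIII:105031-105518) had 3.12 and 2.80 in K215/216A, 2.58 and 1.67 in K215/216R and 1.35 and 1.98 in wild type. The one in YIL001W (chrIX:354710-355598) had 3.36 and 3.92 in K215/216A, 2.93 and 2.24 in K215/216R and 1.79 in wild type replicate 2. At OSH7 and RPL14B the order was K215/216A, K215/216R, wild type by mean, though at RPL14B the K215/216R and wild type libraries overlapped. In YIL001W wild type replicate 1 had no peak, and wild type replicate 2 lay below all libraries of both mutants.

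Toward K215/216R the largest ratios had wild type beside K215/216R in each of the 8. The promoter of MCD1, which encodes the kleisin subunit of cohesin (chrIV:444418-445136; 4768 bp from the centromere interval), had 1.48 and 1.50 in K215/216A, 2.36 and 2.32 in K215/216R, and 2.18 and 2.66 in wild type. Both mutants had close replicates there, and the groups were far apart. The convergent site nearest HXT12 (chrIX:21281-21891) had 1.30 and 1.72 in K215/216A, 2.57 and 2.39 in K215/216R, and 2.27 and 2.22 in wild type, a ratio of 0.609. The promoter of GLC3, the glycogen branching enzyme (chrV:131797-132795), had 1.63 and 1.16 in K215/216A, 1.98 and 2.51 in K215/216R, and 2.11 and 2.50 in wild type. In all of these the K215/216A libraries lay below the other 4.

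The remaining 5 behaved alike. Upstream of PET100, an assembly factor of cytochrome c oxidase, and inside SHU2 (chrIV:602528-602883), the fold was 1.45 and 1.46 in K215/216A, 2.58 and 2.08 in K215/216R, and 2.27 and 1.89 in wild type. The convergent site nearest ERG27, a sterol reductase gene (chrXII:342389-343630), had 1.37 and 1.44 in K215/216A, 2.32 and 2.08 in K215/216R, and 2.46 and 2.16 in wild type. In RPC11, a gene of RNA polymerase III (chrIV:548014-548374), it was 1.31 and 1.18 in K215/216A, 2.06 and 1.84 in K215/216R, and 2.20 and 1.78 in wild type. GTT3 (chrV:124454-124970) and the noncoding gene YNCB0004W (chrII:196460-196841) completed the group with ratios of 0.630 and 0.611. These were chosen for the difference between the mutants, so the values are a description and only the wild type values are independent of the choice.

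**Figure D4:**
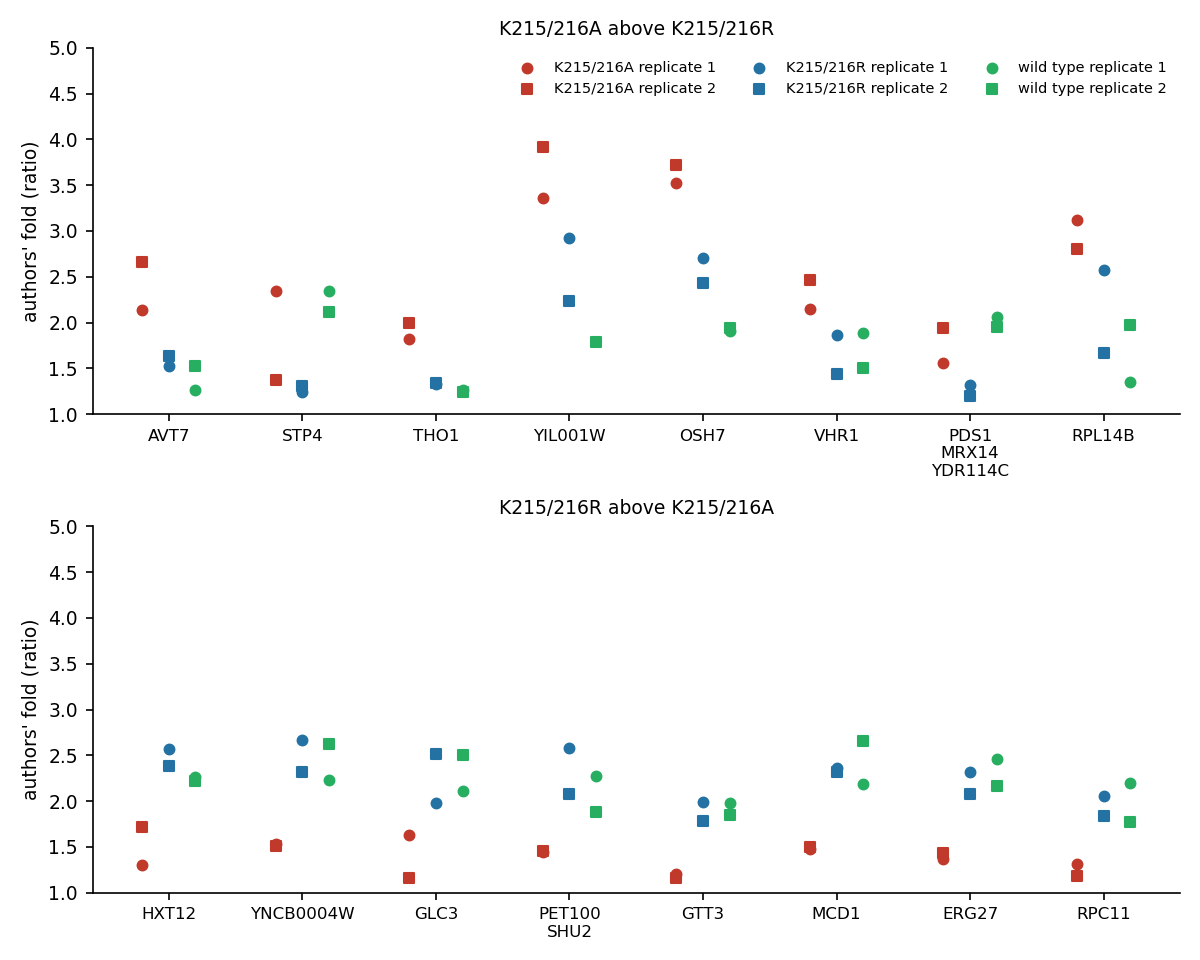
The authors' fold (vertical axis, a ratio) in each library at the 8 common regions with the largest ratio toward K215/216A (top) and toward K215/216R (bottom), named by gene, with replicate 1 as circles and replicate 2 as squares. In the lower panel the wild type libraries lie with K215/216R, while in the upper panel both lie above both K215/216R libraries at STP4 and PDS1 and at no other site.

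Genes of energy metabolism appeared among the promoters of regions only in K215/216A. Over all 6002 protein-coding genes, 483 (8.05%) had the best summit of such a region in the promoter, 146 (2.43%) that of a region only in K215/216R and 1035 (17.2%) that of a common region. Of 54 genes of the respiratory chain and citric acid cycle, 10 (18.5%) were in the class only in K215/216A, 0 in that only in K215/216R and 12 in common regions. NDI1, the internal NADH dehydrogenase of mitochondria, had a fold of 1.82 and 1.74 in K215/216A, 1.53 in K215/216R replicate 2 and 1.73 in wild type replicate 2. LSC1, a succinyl-CoA ligase subunit, had 1.85 and 1.62 in K215/216A and 1.87 in K215/216R replicate 2. COX7, a cytochrome oxidase subunit, and KGD2, of the 2-oxoglutarate dehydrogenase, had peaks in K215/216A alone, with 1.48 and 1.56 at COX7 and 1.58 and 1.30 at KGD2. In 8 of the 10 promoters K215/216R replicate 2 had a peak. Counting only regions without any K215/216R peak, the list had 2 of 54 (3.70%), close to the 180 of all 6002 genes (2.999%).

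Of 32 genes of glycolysis, fermentation and hexose transport, 4 (12.5%) were in the class only in K215/216A, namely HXT5, TDH3, ENO1 and PDC1, and 0 in that only in K215/216R. PDC1, the main pyruvate decarboxylase, had 1.60 and 1.54 in K215/216A and no peak in the other strains. TDH3 had 1.45 and 1.64 in K215/216A and 1.21 in K215/216R replicate 2. Of 25 sterol synthesis genes 4 (16.0%) were only in K215/216A (ERG10, ERG13, MVD1, ERG26) and 0 only in K215/216R. The region of ERG26 (chrVII:496565-496764) lay inside the centromere interval of chromosome VII, so it cannot be told apart from a centromere site. ERG10, which starts the pathway, had 1.85 and 1.66 in K215/216A, 1.31 in K215/216R replicate 2 and 1.63 and 1.74 in wild type. Of 30 genes of heat shock and peroxide defence 4 (13.3%) were only in K215/216A (HSP42, SSA4, TSA1, TRR1) and 2 (6.67%) only in K215/216R (SSA3, GPX1). Without any K215/216R peak there remained 1 glycolysis gene (3.13%), 2 sterol genes (8%; MVD1 and ERG26) and 1 heat shock gene (3.33%), against 2.999% of all genes. The peroxiredoxin gene TSA1 had 2.01 and 1.98 in K215/216A, 1.84 in K215/216R replicate 2 and 1.38 in wild type replicate 2.

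Read against 8.05% and 2.43% of all genes, the shares of the remaining lists lay on either side. Amino acid synthesis had 5 of 76 only in K215/216A (6.58%) and 3 only in K215/216R (3.95%; LYS21, BAT1 and ARO1). Zinc, iron and copper genes had 3 of 32 (9.38%) and 0, while cell wall genes were lower with 2 of 50 (4%) and 0. The galactose regulon had 1 of 12, GAL7, with 1.61 and 1.58 in K215/216A and 1.76 in K215/216R replicate 2. Ribosomal protein genes had 4 of 138 (2.90%) and 0, and 4 (2.90%) in common regions, all below the shares of all genes. Genes within 20 kb of a chromosome end had 10 of 250 (4%) and 2 (0.80%), also below them. Counts this small can change with 1 region, and members were chosen with results in view, so no test was made on the lists.

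Lists of the centromere and of Cse4 are short, and each count rests on 1 or 2 genes. Of 52 kinetochore and checkpoint genes, 1 was only in K215/216A (1.92%; BIR1, of the chromosomal passenger complex), 2 were only in K215/216R (3.85%) and 10 were in common regions. NDC80, of the microtubule-binding kinetochore complex, had no K215/216A peak, 1.58 and 1.69 in K215/216R and 1.66 in wild type replicate 2. CHL4 had 1.42 and 1.26 in K215/216R and 1.17 in wild type replicate 2. Of 29 genes of Cse4 chaperones and of ubiquitin and SUMO ligases, 1 was only in K215/216A (3.45%; MSI1, a subunit of chromatin assembly factor 1) and 1 only in K215/216R (3.45%; ULP2, a SUMO protease). Of 10 histone genes 2 were only in K215/216A (20%; HHF1 and HTZ1), each with a K215/216R replicate 2 peak, at 1.26 for HHF1. Of 14 cohesin and condensin genes 2 were only in K215/216A (14.3%; IRR1 and SCC2), both with peaks in K215/216R replicate 2. The histone and cohesin shares were above the 8.05% of all genes, and 0 genes of either list remained where K215/216R had no peak.

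In common regions the lists differed in how many genes stood on either side. The genes named here were picked after their values were seen. Of the 1035 genes with a common region in the promoter, both K215/216A libraries lay above both K215/216R libraries at 161 (2.68% of all genes). The reverse held at 275 (4.58% of all genes), and the median ratio over genes with a common region in the promoter was 0.974. The counts of each list are few and are to be read against 161 and 275 of 1035. Kinetochore genes had 0 above and 4 below (CTF19, NNF1, NSL1 and MAD1), with a median of 0.931 over 10. MAD1 had 1.60 and 1.70 in K215/216A, 1.71 and 1.96 in K215/216R and 1.78 and 1.52 in wild type. Ribosomal protein genes had 3 above (RPL43B, RPL15B and RPS9A) and 0 below, with a median of 1.12 over 4. Zinc, iron and copper genes had 4 above (ZRT2, IZH4, FTR1 and SMF1) and 1 below, with a median of 1.02 over 12. Respiratory genes also had 4 above (QCR6, ATP16, CIT1 and MDH3) and 1 below, with a median of 0.961 over 12.

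Among the other lists, sterol genes had 2 above and 1 below (median 0.989 over 8) and amino acid genes 3 above and 3 below (0.966 over 20). Of the amino acid genes above, MET14 had a region (chrXI:438517-440047) that reached into the centromere interval of chromosome XI. Cell wall genes had 1 above and 3 below (0.955 over 11). The galactose list had 0 above and 2 below, GAL1 and GAL10, which share 1 region, and the median was 0.938 over its 2 common regions. The glycolysis list had 0 above and 2 below (0.906 over 4). Heat shock genes had 0 on either side (1.09 over 4), cohesin genes 0 and 1 (0.823 over 2), and Cse4 chaperone and ligase genes 0 and 1 (0.989 over 5). Genes near chromosome ends had 2 and 7, the 7 in 6 regions (0.942 over 16 regions). The native promoter interval of GAL1 and GAL10, induced by galactose like the promoter of the construct, had 2.54 and 2.60 in K215/216A, 3.28 and 3.01 in K215/216R and 3.52 and 2.76 in wild type. The CSE4 gene (chrXI:346075-346764) had 1.85 and 2.08 in K215/216A, 2.73 and 2.45 in K215/216R and 2.87 and 2.249 in wild type. Both loci share sequence with the construct, and the copy number of that sequence was not analysed here. The PSH1 gene, deleted in all 3 strains, held no peak in any of the 6 libraries, which checks nothing, since an intact gene can also lack one.

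Along the genome, regions only in K215/216A were the more numerous on 15 of 16 chromosomes, at 87.1 against 48.9 per Mb over all. These are counts of the deposited lists, which differ in length. At equal list length the classes held 731 and 741 regions over the genome, and counts by chromosome are not given for that setting. Chromosome IV, the longest, had 142 only in K215/216A and 59 only in K215/216R, the highest ratio, 2.41. Chromosome VIII had 46 and 45, with the highest density of regions only in K215/216R, 80.1 per Mb. Chromosome I, the shortest by annotated span, was the exception with 11 and 15, a density of 48.9 and 66.6 per Mb. Within 20 kb of the outermost annotated gene, or beyond it, lay 27 regions only in K215/216A (2.58%) and 28 only in K215/216R (4.75%), against 5.32% of the span. Over all peaks this share was 3.08% and 3.77% in K215/216A, against 3.77% and 3.73% in K215/216R (difference −0.33 points, exact permutation p 0.667, adjusted 0.8), and without K215/216A replicate 1 it was 0.014 points.

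**Figure D5:**
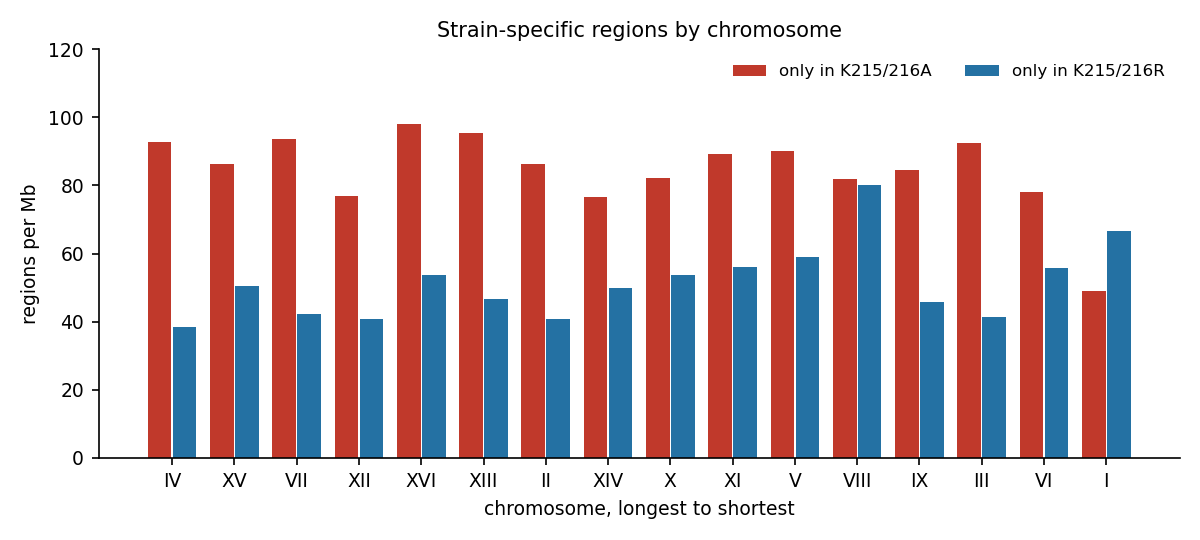
Regions only in K215/216A and only in K215/216R per Mb of annotated span (vertical axis) on each chromosome, ordered from longest to shortest. The first class is denser on every chromosome except I, and chromosome VIII has nearly equal bars. The deposited lists are shown, and at equal list length the classes hold 731 and 741 regions over the genome.

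Of 275 nuclear tRNA genes, 6 (2.18%) overlapped a region only in K215/216A, 0 a region only in K215/216R and 28 (10.2%) a common region, against 14.1%, 8.31% and 35.0% of protein-coding gene bodies, which are longer. The broadest common region was the ribosomal DNA (chrXII:455703-464603), a repeat array of which the assembly holds few copies, with 2.00 and 1.96 in K215/216A, 2.84 and 2.09 in K215/216R and 2.79 and 1.92 in wild type. The broadest region only in K215/216A lay between MMF1 and PCL7 (chrIX:257934-259275), with 1.56 and 1.50 in K215/216A, 1.77 in K215/216R replicate 2 and 2.12 in wild type replicate 1. The broadest only in K215/216R lay in FLO11, a flocculin gene with internal repeats (chrIX:389598-390731), with 1.32 in K215/216A replicate 1, 1.73 and 1.52 in K215/216R and 1.71 and 1.52 in wild type.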

How the data were processed

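Per the submitters' processing notes, Bowtie 1.0.0, MACS2 2.1.1.20160226 and bedtools 2.25.0 were used with the sacCer3 build. The control used in peak calling is not given in the sources used here. In each deposited peak list the fold is a ratio of summit pileup to local background, the score is 10 times the −log10 q, and p and q are given as −log10 values. The deposited merged list of each strain was rebuilt exactly from its 2 peak lists, as joined peaks found in both libraries with their mean fold.

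Genes came from the RefSeq R64 table, the assembly on which sacCer3 is based (6002 nuclear protein-coding genes), with strand read from systematic names. A list name, ARG5,6, matched no symbol. Each region took the context of its summit of highest fold. Pileup and local background were solved from fold and p, and 99.6% to 99.8% of pileups came out whole within 0.001 in −log10 p. The lowest background of a library served as its depth. Shares over libraries were compared by two-sided exact permutation tests with Benjamini-Hochberg adjustment over 6 shares. The steps were tested on simulated data. Python 3.11.15, numpy 2.4.6, pandas 2.3.3 and scipy 1.17.1 were used.

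The members, gene lists and rules were chosen with earlier results of these data known. Named were the 12 regions of highest merged fold in each strain-specific class and the 8 common regions of largest ratio in each direction whose libraries did not overlap, besides the broadest region of each class, centromere intervals, list members and the loci of the construct. Alternatives were stricter q limits, equal list length, scaled depth, other overlap rules, omission of each library and a replicate block.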

Additional observations from a re-analysis of the deposited data

How the results depend on the processing

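With peaks of −log10 q of at least 5, common regions fell to 1227 in the K215/216A list and 1230 in the K215/216R list, those with non-overlapping folds to 141 and 424, and the promoter shares of regions only in 1 mutant were 44.1% and 31.1%. When regions with any peak of the other mutant were removed, 354 and 192 remained, and the promoter share of the K215/216R class was 17.7%. Leaving out 1 library gave 442 to 1892 regions only in K215/216A and 359 to 1635 only in K215/216R, 616 to 924 and 1157 to 1277 common regions with non-overlapping folds, and promoter shares of 34.7% to 43.7% only in K215/216A. The centromere share was then 2.59% to 4.11% only in K215/216A and 0.279% to 1.28% only in K215/216R. The difference in tandem summits was −0.42 to 2.19 points and that within 20 kb of an end −0.67 to 0.014 points. Of 182 comparisons with an alternative, 154 stayed on the same side or within 1.5 times or the error, 26 moved and 2 reversed. This tally takes each result alone. The 731 and 741 regions at equal list length thus counted as unmoved, although the excess of 1048 over 589 was not seen there. Some results could not change, such as the differences under the replicate block. Promoter and centromere shares were added as results after seeing the data. The replicate numbers are not said to mark a shared day or batch, and deviations of same-numbered libraries had a correlation of −0.018 over 2383 common regions. The replicate block left the divergent difference at 1.96 points (exact permutation p 0.5, the smallest possible). Depth limits the lists to sites that pass in the shallowest library of a strain.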
